A study of Homo sapiens with 9 samples.

Results

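The genes examined here are 9 genes of the lung epithelium, followed in A549 cells in which MED23 or ELK1 had been knocked down. They are the transcription factors GATA6, FOXA1, FOXA2, NKX2-1 and HNF4A, and the surfactant genes SFTPB, NAPSA, ABCA3 and LPCAT1. They were chosen by name, with earlier results of these data known. A probe set was taken for a member where the platform annotation gives it that 1 gene symbol alone. This gave 16 probe sets for 8 of the 9 members, out of 54613 probe sets and 19775 genes in all. HNF4A has no probe set named so and was not analysed here. A gene was represented by its brightest probe set on average, and was tested where that average reached the median over all probe sets, a signal of 65.4 (6.05 on the log2 scale). By this rule 7 members were tested among 12616 genes, and NKX2-1 was not.

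A549 is an established line from a human lung adenocarcinoma, and the title of the series asks whether lung cancer with active Ras needs MED23. MED23 belongs to Mediator, a large coactivator of RNA polymerase II, and the ETS factor ELK1 binds MED23 once ERK has phosphorylated it. The 9 arrays hold 3 arrays of cells with a control oligo (si-Ctrl 1, 2 and 3), 3 of cells with an RNAi oligo against MED23 (si-Med23 A, B and C) and 3 of cells with one against ELK1 (si-Elk1 A, B and C). Each knockdown array carries another oligo, and the design text calls these different cell lines, all cultured with serum and left untreated. No label says that the 3 control arrays came from separate cultures, so the p-values measure only the spread between these arrays, which may be technical. An array of total RNA from a whole culture cannot tell fewer cells of a type from less RNA per cell.

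Alveolar type II cells make surfactant, a film of phospholipid and proteins that keeps the alveoli open. NKX2-1, the FOXA factors and GATA6 act together in the development of these cells and on the promoters of surfactant genes. The lipid is built by acyltransferases such as LPCAT1, is pumped by ABCA3 into the lamellar bodies in which it is stored, and is packed there with surfactant protein B (SFTPB), whose precursor is cut by proteases that include napsin A (NAPSA).

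The knockdowns were read first. MED23 (probe set 218846_at) had signals of 616, 529 and 541 in si-Ctrl, 109, 71.9 and 132 in si-Med23, and 467, 518 and 290 in si-Elk1. All 3 si-Med23 arrays lay under all others, and the fitted level was 18.2% of si-Ctrl. ELK1 (203617_x_at) had signals of 655, 783 and 627 in si-Ctrl, 133, 141 and 226 in si-Elk1, and 1011, 1315 and 745 in si-Med23. The level in si-Elk1 was 23.8% of si-Ctrl. On these probe sets both falls passed, with adjusted p = 0.00184 for MED23 in si-Med23 and adjusted p = 0.00684 for ELK1 in si-Elk1 (limma, Benjamini-Hochberg over the genes tested). Over all probe sets in limma, MED23 218846_at passed (adjusted p = 0.0230) and ELK1 203617_x_at did not (adjusted p = 0.0728). The depth differed by probe set. ELK1 210376_x_at gave 47.3% in si-Elk1, and MED23 223947_s_at and 242706_s_at gave 39.0% and 9.23% in si-Med23.

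The deposited signals share a 2% trimmed mean of 500.1 on every array, and their medians ran from 64.9 to 69 in si-Med23, from 77.1 to 80 in si-Ctrl and from 84.1 to 88.2 in si-Elk1. The arrays' control probe sets did not share that scale. The 24 probe sets for poly-A spikes, RNAs that the standard workflow adds to a sample before labelling, averaged 7.61 ± 0.20 for si-Ctrl, 9.22 ± 0.12 for si-Med23 and 8.25 ± 0.29 for si-Elk1 on the log2 scale (SD, n = 3). The 18 hybridization controls averaged 11.83 ± 0.06, 12.33 ± 0.06 and 12.01 ± 0.10. Scaling on the spikes would lower every log2 fold change of si-Med23 by 1.61 and of si-Elk1 by 0.64, and scaling on the hybridization controls by 0.50 and 0.18. The median over all genes in si-Med23 against si-Ctrl is 0.09 as deposited and -1.52 on the spike scale. On the deposited scale 2561 genes passed as higher and 2462 as lower, against 18 and 11880 on the spike scale, 409 and 5205 on the hybridization scale and 4764 and 1676 after median centring. All directions given here are on the deposited scale unless another is named.

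In si-Med23, GATA6, FOXA2, ABCA3 and LPCAT1 rose, and FOXA1, SFTPB and NAPSA did not pass the test. These 4 members of 7 passed at an adjusted p under 0.05, all as higher on the deposited scale, while with spike scaling 6 members passed as lower. Over all genes 39.8% passed in this comparison, 20.3% as higher and 19.5% as lower. The 4 members also had no overlap between the si-Med23 and si-Ctrl arrays, with every si-Med23 array higher, as did 31.7% of all genes. The median log2 fold change was 0.43 over the 7 members and 0.09 over all genes. In si-Elk1 none of the 7 passed in limma's test, where 4.26% of all genes passed. An unadjusted p under 0.05 was found for 1 of the 7, and for 3162 of all 12616 genes. The median there was 0.0046 over the members and 0.05 over all genes. Both comparisons use the same 3 control arrays. Since the members were chosen with earlier results of these data known, their counts and medians beside those of all genes are a description only.

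**Figure D1:**
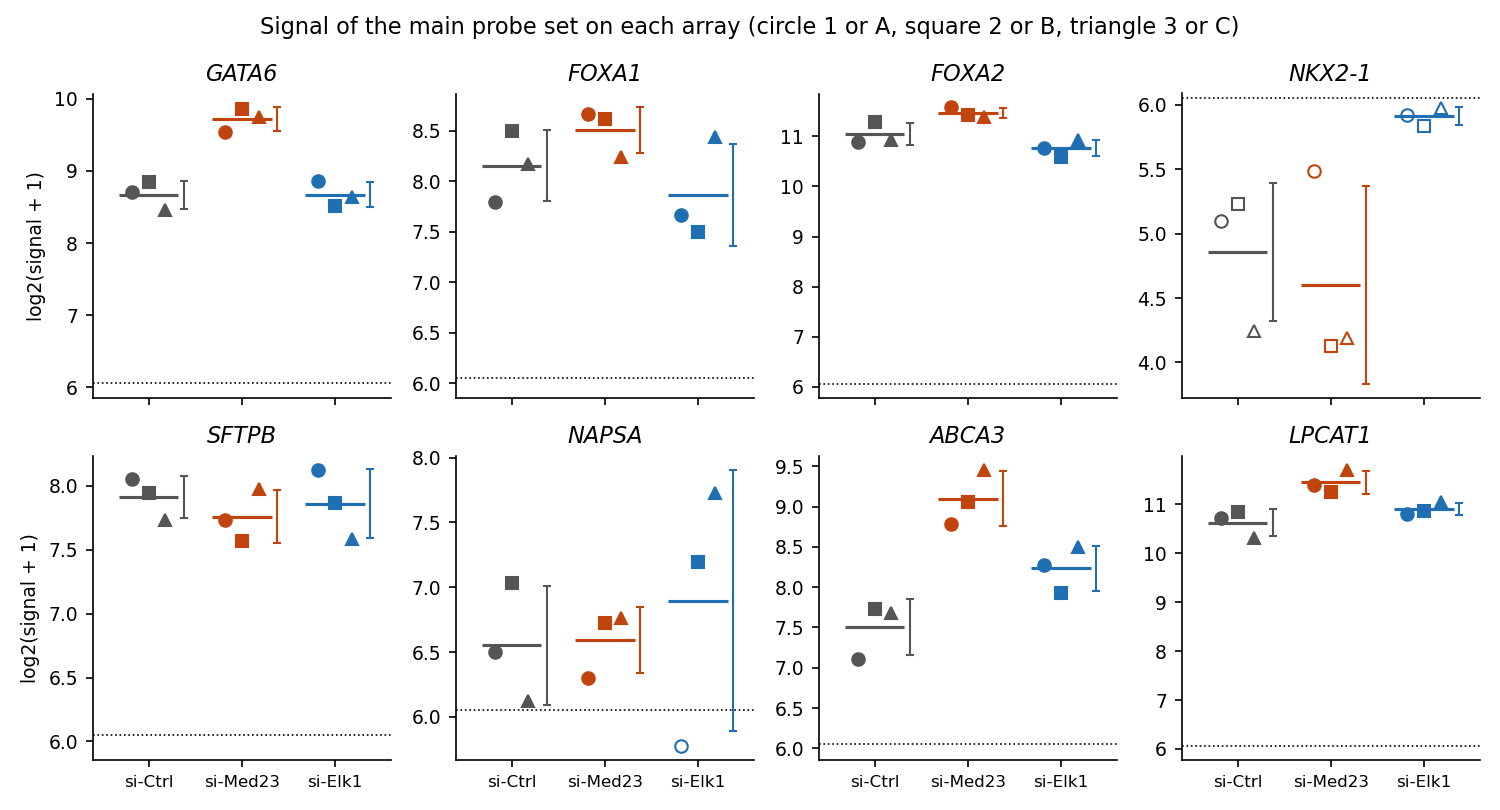
Log2(signal + 1) of the main probe set of each of the 8 members on the 9 arrays, by group, with the group mean (line) and SD (bar, n = 3). Each panel has its own vertical scale, the dotted line is the filter level of 6.05, and open symbols lie under it. GATA6, FOXA2, ABCA3 and LPCAT1 have all 3 si-Med23 arrays above all si-Ctrl arrays on this scale (with spike scaling their fold changes turn negative), and NKX2-1 lies under the level on all 9 arrays.

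GATA6, a zinc-finger factor needed for the differentiation of distal lung epithelium, had signals of 416, 458 and 351 in si-Ctrl (210002_at), 747, 931 and 863 in si-Med23, and 465, 366 and 396 in si-Elk1. The 3 si-Med23 arrays were higher than the other 6, and the si-Ctrl and si-Elk1 arrays overlapped. The log2 fold change in si-Med23 was 1.05 ± 0.15 (SE, n = 3), a 2.08-fold rise (adjusted p = 0.00256). In si-Elk1 it was 0.0046 ± 0.15, with a 95% confidence interval from -0.34 to 0.35 (adjusted p = 0.987). The call in si-Med23 held with each of the 9 arrays left out in turn, with log2 fold changes from 0.95 to 1.14.

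A second GATA6 probe set, 229282_at, was dim and did not follow. Its log2 values were 6.44, 4.75 and 6.13 in si-Ctrl, 3.67, 6.11 and 6.04 in si-Med23, and 6.57, 5.45 and 6.29 in si-Elk1, with 4 of the 9 under the filter level. The difference in si-Med23 was -0.50 ± 0.75, and -0.14 once signals were raised to the level. The mean of both probe sets gave 0.28 (adjusted p = 0.598), so the rise of GATA6 was seen on its brighter probe set alone.

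FOXA2, a forkhead factor that opens chromatin at lung and liver genes, had signals of 1901, 2507 and 1960 in si-Ctrl (40284_at), 3065, 2752 and 2685 in si-Med23, and 1755, 1550 and 1939 in si-Elk1. The lowest si-Med23 array lay just above the highest si-Ctrl array, and si-Elk1 overlapped si-Ctrl at the lower end. FOXA2 rose in si-Med23 by 0.43 ± 0.15 on the log2 scale, 1.34-fold, close to the threshold (adjusted p = 0.0485). In si-Elk1 the difference was -0.27 ± 0.15 (adjusted p = 0.278).

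The FOXA2 call was lost when 1 of 7 arrays was left out, though the sign stayed. Without si-Ctrl 1 the value was 0.35 (adjusted p = 0.150), without si-Ctrl 3 it was 0.37 (0.145), and without si-Med23 A it was 0.37 (0.128). Without si-Med23 B it was 0.45 (adjusted p = 0.0887) and without si-Med23 C 0.46 (0.0719). Leaving out si-Elk1 A or B kept 0.43, with adjusted p-values of 0.0688 and 0.0522. It was also lost with no filter on low genes (adjusted p = 0.107), with quantile normalization (0.0543), in a fit of only the 6 arrays (0.0527) and with hybridization scaling, where the value was -0.07. A second bright probe set, 210103_s_at, had signals of 873, 672 and 636 in si-Ctrl and 815, 1034 and 975 in si-Med23, which overlapped, with a difference of 0.38 ± 0.20. The third, 214312_at, was under the filter level on 5 arrays and gave -1.06 ± 0.77, or -0.37 with signals raised to the level. The mean of the 3 gave -0.08 (adjusted p = 0.826).

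FOXA1, the close relative of FOXA2, has 2 probe sets of similar brightness that point in opposite directions in si-Med23. On 204667_at its signals were 221, 361 and 288 in si-Ctrl, 405, 391 and 302 in si-Med23, and 202, 180 and 347 in si-Elk1, and all 3 groups overlapped. The log2 difference was 0.35 ± 0.27 in si-Med23 (adjusted p = 0.330) and -0.29 ± 0.27 in si-Elk1 (adjusted p = 0.527). On 237086_at the signals were 373, 402 and 303 in si-Ctrl, 213, 256 and 208 in si-Med23, and 338, 231 and 255 in si-Elk1. Here all 3 si-Med23 arrays were under all si-Ctrl arrays, and the difference was -0.67 ± 0.22, which did not pass over all 54613 probe sets (adjusted p = 0.0984, where 7.89% passed). In si-Elk1 both probe sets were lower without passing, with a difference of -0.40 ± 0.22 on 237086_at. No direction can be given for FOXA1 from these arrays.

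NKX2-1, the homeodomain factor that marks lung and thyroid epithelium, was under the filter level on all 9 arrays and on both probe sets. On 210673_x_at its signals were 33.3, 36.5 and 17.9 in si-Ctrl, 43.9, 16.5 and 17.2 in si-Med23, and 59.6, 56.3 and 62 in si-Elk1. The 3 si-Elk1 values lay above the 3 si-Ctrl values, with a log2 difference of 1.06 ± 0.42 that did not pass over all probe sets (adjusted p = 0.395). The other probe set, 211024_s_at, ran from 4.4 to 27.2 and gave 0.10 ± 0.58. Values this low have no sure order, and with signals raised to the filter level both differences were 0.

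Among the surfactant proteins, SFTPB, which spreads the lipid film, had signals of 265, 246 and 212 in si-Ctrl (213936_x_at), 212, 188 and 251 in si-Med23, and 278, 233 and 191 in si-Elk1. All 3 groups overlapped. The log2 difference was -0.15 in si-Med23, with a 95% confidence interval from -0.56 to 0.25 (adjusted p = 0.506), and -0.05 in si-Elk1, with an interval from -0.45 to 0.35 (adjusted p = 0.876). On the hybridization scale SFTPB passed as lower in si-Med23, at -0.65 (adjusted p = 0.0199).

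The 3 other SFTPB probe sets were dimmer. On 214354_x_at the values in si-Med23 were 15.9, 109 and 138 against 161, 111 and 121 in si-Ctrl, and the low array was si-Med23 A. The difference was -1.03 ± 0.74. The remaining probe sets, 37004_at and 209810_at, lay under the filter level on 6 and 9 arrays. They gave -0.30 ± 0.49 and -0.63 ± 0.66, and neither passed.

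NAPSA, the aspartic protease of the type II cell, had signals of 89.6, 130 and 68.6 in si-Ctrl (223806_s_at), 78, 105 and 107 in si-Med23, and 53.7, 146 and 210 in si-Elk1. The 3 si-Elk1 oligos spanned the values of both other groups, from the lowest array to the highest. The log2 difference was 0.04 in si-Med23, with a 95% confidence interval from -0.99 to 1.08 (adjusted p = 0.943), and 0.35 in si-Elk1, with an interval from -0.69 to 1.39 (adjusted p = 0.658). A 2-fold rise lies inside both intervals, so these arrays do not exclude such a rise.

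ABCA3, the lipid pump of the lamellar body, had signals of 137, 211 and 204 in si-Ctrl (204343_at), 439, 531 and 702 in si-Med23, and 308, 243 and 360 in si-Elk1. The groups stood in the order si-Ctrl, si-Elk1, si-Med23 with no overlap. The rise in si-Med23 was 1.59 ± 0.24 on the log2 scale, 3.01-fold (adjusted p = 0.00275). In si-Elk1 the difference was 0.73 ± 0.24, 1.65-fold, and did not pass (adjusted p = 0.111, unadjusted p = 0.015), while 21.1% of all genes had all 3 si-Elk1 arrays above the controls. The call in si-Med23 held with each array left out, with values from 1.39 to 1.75. On the spike scale the value was -0.02, against a median of -1.52 over all genes.

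LPCAT1, which makes the dipalmitoyl phosphatidylcholine of surfactant, had signals of 1679, 1842 and 1276 in si-Ctrl (201818_at), 2684, 2432 and 3345 in si-Med23, and 1789, 1869 and 2114 in si-Elk1. Every si-Med23 array was above the other 6, and si-Elk1 overlapped si-Ctrl. LPCAT1 rose in si-Med23 by 0.82 ± 0.18 on the log2 scale, 1.77-fold (adjusted p = 0.00857), and the call held with each array left out, from 0.67 to 0.93. It did not pass on the hybridization scale, at 0.32 (adjusted p = 0.168). In si-Elk1 the difference was 0.28 ± 0.18 (adjusted p = 0.345).

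**Figure D2:**
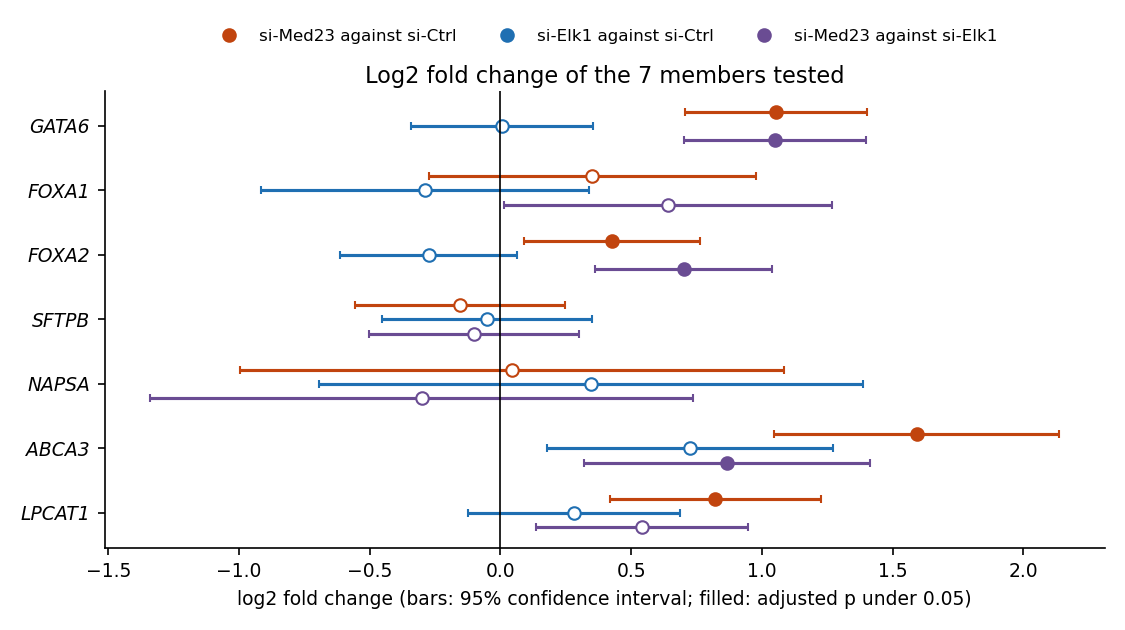
Log2 fold change with its 95% confidence interval for the 7 members tested, in 3 comparisons, with filled points where the adjusted p was under 0.05. On the deposited scale ABCA3 at 1.59, GATA6 at 1.05, LPCAT1 at 0.82 and FOXA2 at 0.43 passed in si-Med23 against si-Ctrl (with spike scaling none of the 4 is above 0), and no member passed in si-Elk1 against si-Ctrl.

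The 2 knockdowns were compared directly, since a call in one and none in the other does not show that they differ. GATA6 was 1.05 ± 0.15 higher on the log2 scale in si-Med23 than in si-Elk1 (adjusted p = 0.00640), FOXA2 0.70 ± 0.15 higher (adjusted p = 0.0165) and ABCA3 0.87 ± 0.24 higher (adjusted p = 0.0364). These 3 of 7 members passed, where 21.7% of all genes did and 9.54% as higher. On the spike scale the GATA6 difference was 0.08, that of FOXA2 -0.27 and that of ABCA3 -0.11. These 3 and LPCAT1 had no overlap, with si-Med23 higher, as did 18.5% of all genes. LPCAT1, at 0.54 ± 0.18, did not pass (adjusted p = 0.0591), and FOXA1, at 0.64 ± 0.27, did not pass (adjusted p = 0.119). SFTPB differed by -0.10, with an interval from -0.50 to 0.30, and NAPSA by -0.30, with an interval from -1.34 to 0.74.

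GATA6 was the member whose difference between the knockdowns passed with every array left out, from 0.97 to 1.14, on its brighter probe set. Its dim probe set 229282_at gave -0.83 ± 0.75 here, and the mean of both gave 0.11 (adjusted p = 0.858). Over all probe sets in limma, GATA6 210002_at (adjusted p = 0.0564), FOXA2 40284_at (0.099) and ABCA3 204343_at (0.136) did not pass in this comparison. The ABCA3 call was lost without si-Ctrl 3 (0.87, adjusted p = 0.0504), si-Med23 B (0.89, 0.0813), si-Med23 C (0.69, 0.0901), si-Elk1 A (0.88, 0.0947) or si-Elk1 B (0.72, 0.118). The FOXA2 call was lost without si-Elk1 A (0.71, adjusted p = 0.0571) or si-Elk1 B (0.62, 0.0619). Without si-Elk1 C, FOXA1 at 0.93 (adjusted p = 0.0181) and LPCAT1 at 0.61 (adjusted p = 0.0459) passed too. The count of members that passed was 1 without si-Elk1 A or B and 5 without si-Elk1 C.

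**Figure D3:**
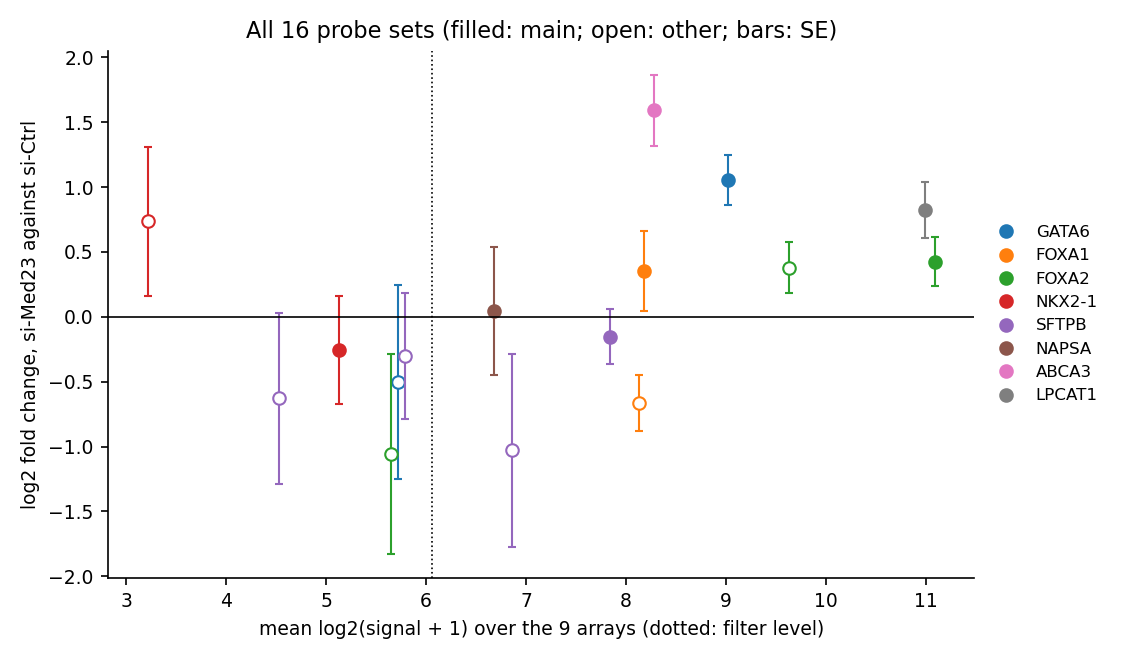
Log2 fold change in si-Med23 against si-Ctrl (vertical, bars SE) for all 16 probe sets of the 8 members, against their mean log2 signal over the 9 arrays (horizontal), with the filter level dotted. Filled points are the probe set that stands for its gene. The 2 FOXA1 probe sets lie at 0.35 and -0.67, and 6 of the 16 probe sets lie under the level.

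Of the 16 probe sets, 10 had a mean at or above the filter level and 6 had one under it. When all 54613 probe sets were tested without a filter, 7.89% passed in si-Med23. Among those of the members, GATA6 210002_at (adjusted p = 0.0278) and ABCA3 204343_at (adjusted p = 0.0264) passed. LPCAT1 201818_at (adjusted p = 0.0571) and FOXA2 40284_at (adjusted p = 0.196) did not, with the same fold changes as before. ABCA3, LPCAT1 and NAPSA have 1 probe set each, so their values have no second probe set to set beside them.

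**Figure D4:**
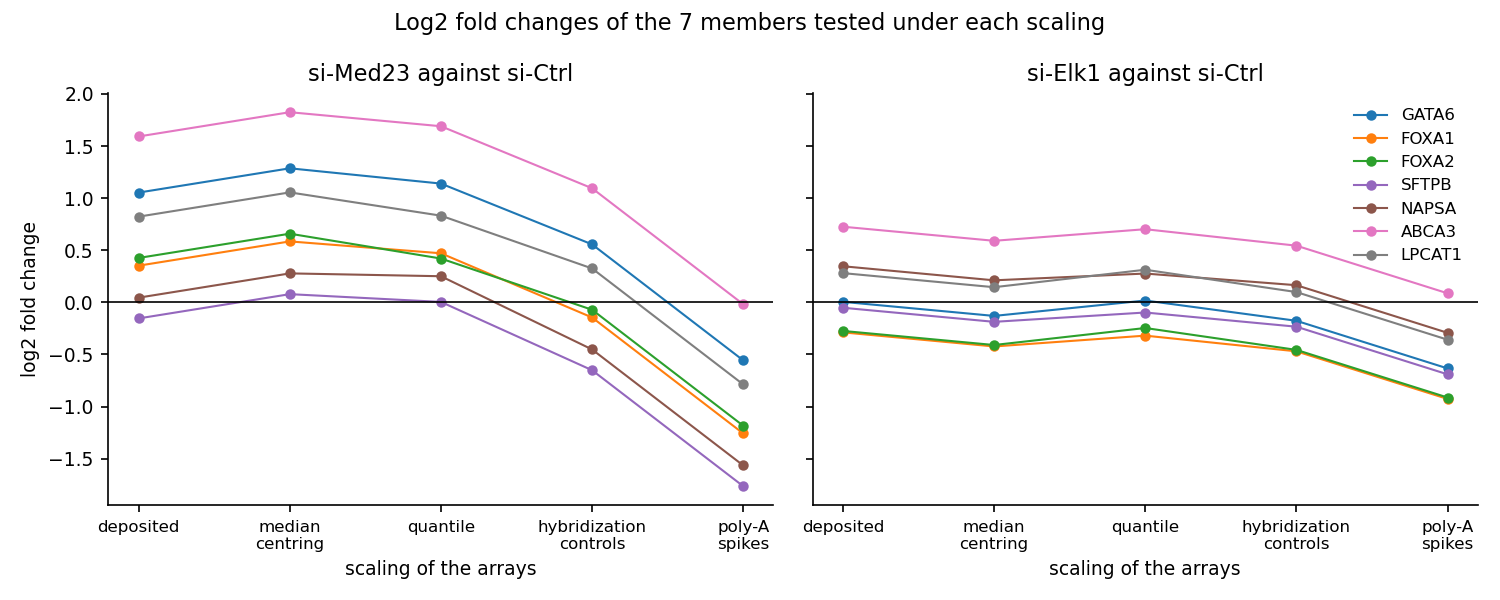
Log2 fold change of the 7 members tested under 5 scalings of the arrays, for si-Med23 (left) and si-Elk1 (right) against si-Ctrl. Each scaling other than quantile normalization moves all members by 1 amount, and on the poly-A spike scale GATA6 falls to -0.56, LPCAT1 to -0.79 and FOXA2 to -1.18 in si-Med23, while ABCA3 lies at -0.02.

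The order of the members within an array does not depend on a common scale factor. On every scale but quantile normalization GATA6 in si-Med23 stood 0.96 above the median gene and LPCAT1 0.73 above it. The poly-A spikes gave 6 members lower in si-Med23 and 3 lower in si-Elk1, where 4898 genes passed as lower and 95 as higher. The spikes and the hybridization controls differed between each pair of groups with no overlap of arrays, with an exact two-sided permutation p of 0.1, the smallest that 3 against 3 allows. The cause of these differences was not tested.

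The promoters of the 3 members whose rise in si-Med23 held with every array left out are shown beside one of SFTPB, which did not pass, so that their base composition can be compared. Each runs from 250 bases before to 50 after a start site in RefSeq (GRCh38.p14), 5' to 3' on the gene's strand, and CpG dinucleotides are in capitals. RefSeq gave 12 such promoters for 8 of the 9 members, and none was matched for FOXA2.
ABCA3, chr16:2340679-2340978, minus strand: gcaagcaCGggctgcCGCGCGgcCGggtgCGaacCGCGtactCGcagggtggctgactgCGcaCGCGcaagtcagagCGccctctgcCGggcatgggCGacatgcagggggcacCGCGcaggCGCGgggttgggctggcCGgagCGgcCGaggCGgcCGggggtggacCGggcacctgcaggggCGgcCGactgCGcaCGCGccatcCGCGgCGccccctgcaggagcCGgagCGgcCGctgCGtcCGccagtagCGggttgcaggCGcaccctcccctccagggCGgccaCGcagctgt
LPCAT1, chr5:1523911-1524210, minus strand: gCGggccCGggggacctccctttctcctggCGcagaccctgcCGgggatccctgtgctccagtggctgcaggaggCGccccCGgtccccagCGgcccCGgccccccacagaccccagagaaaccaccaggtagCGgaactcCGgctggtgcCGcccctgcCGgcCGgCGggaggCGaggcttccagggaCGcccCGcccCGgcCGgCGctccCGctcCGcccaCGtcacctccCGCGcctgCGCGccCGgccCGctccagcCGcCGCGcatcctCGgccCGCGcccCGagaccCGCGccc
GATA6, chr18:22169339-22169638, plus strand: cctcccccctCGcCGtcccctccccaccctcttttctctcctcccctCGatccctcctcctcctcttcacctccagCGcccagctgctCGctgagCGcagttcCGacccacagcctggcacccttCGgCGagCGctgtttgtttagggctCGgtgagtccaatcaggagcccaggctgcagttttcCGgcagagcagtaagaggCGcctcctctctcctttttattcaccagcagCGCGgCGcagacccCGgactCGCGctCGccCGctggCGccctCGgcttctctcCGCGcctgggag
SFTPB, chr2:85668150-85668449, minus strand: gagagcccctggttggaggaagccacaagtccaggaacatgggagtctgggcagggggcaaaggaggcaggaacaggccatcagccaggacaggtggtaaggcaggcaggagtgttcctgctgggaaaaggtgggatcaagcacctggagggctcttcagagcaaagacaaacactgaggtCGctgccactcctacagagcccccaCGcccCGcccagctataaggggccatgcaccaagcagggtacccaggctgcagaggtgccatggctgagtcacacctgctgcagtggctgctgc

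The ABCA3 promoter holds 42 CpG dinucleotides at a GC content of 78.0%, that of LPCAT1 holds 38 at 80.0% and that of GATA6 holds 25 at 66.7%. The SFTPB promoter shown holds 3 at 61.7%, and a second SFTPB start site has 1 at 55.0%. Over 35116 RefSeq promoters of this length the median is 14 CpG dinucleotides and a GC content of 58.7%. The FOXA1 promoter holds 34 at 69.3%, but no direction can be given for that gene. For NAPSA, which did not pass, the promoters hold 10 at 54.7% and 5 at 56.3%. The promoters shown were picked by the result of their gene, and whether CpG content goes with a rise was not tested.

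The 12 promoters were also searched on both strands for the core letters of 5 factor motifs, none of which contains another. The FOXA letters TGTTTAC are in 1 of them, a promoter of NKX2-1, and in 3.42% of all promoters. The GATA letters AGATAA are in 2, of NKX2-1 and HNF4A, and in 10.3% of all. The NKX2-1 letters CACTTGA (2.48% of all), the ETS letters CCGGAAG, which ELK1 can bind (10.3%), and the HNF4A letters CAAAGTCCA (0.384%) are in none of the 12.

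The other genes of surfactant were counted from lists, which were also chosen with earlier results of these data known. The counts of these and the later lists stand beside the share of all genes that passed. That share was 20.3% as higher and 19.5% as lower in si-Med23, and 4.26% in either direction in si-Elk1. Of the list for surfactant proteins and the lamellar body, 7 of 14 genes were tested, and in si-Med23 2 rose and 1 fell on the deposited scale (0 and 6 with spike scaling). CTSH, a cathepsin that cuts the surfactant protein precursors, was at log2 9.75, 9.76 and 9.83 in si-Ctrl and at 10.60, 10.82 and 11.04 in si-Med23. It rose by 1.04 ± 0.15 (adjusted p = 0.00267), and at 10.22, 10.24 and 10.61 in si-Elk1 it was 0.57 ± 0.15 higher without passing (adjusted p = 0.0707). RAB38, a GTPase of lysosome-related organelles, was at 7.49, 8.02 and 7.93 in si-Ctrl, 8.91, 8.84 and 9.33 in si-Med23, and 7.93, 7.73 and 7.89 in si-Elk1. It rose by 1.22 ± 0.18 in si-Med23 (adjusted p = 0.00277) and differed by 0.04 in si-Elk1.

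AP3B1, an adaptor subunit that sorts cargo to such organelles, fell by 0.72 on the log2 scale in si-Med23 (adjusted p = 0.0138), a call lost without si-Ctrl 3 (-0.60, adjusted p = 0.0537). SFTPC, the other small hydrophobic surfactant protein, was 0.53 ± 0.21 higher in si-Med23 on its brightest probe set (adjusted p = 0.0684). In si-Elk1 that probe set was 0.54 ± 0.21 higher (adjusted p = 0.148), and neither change passed. The other SFTPC probe sets had mean log2 signals from 3.42 to 3.57, under the filter level. They gave -0.54, -0.04, 0.16 and 0.18 in si-Med23, and 0.44, 0.41, 0.12 and -0.34 in si-Elk1. LAMP3, a lamellar body membrane protein, lay under the filter level by its mean. Its log2 signals were 5.26, 5.59 and 5.36 in si-Ctrl, 6.88, 6.45 and 6.80 in si-Med23, and 5.45, 5.83 and 4.63 in si-Elk1, and it was not tested. SFTPD, SFTA3, SLC34A2 and ADGRF5 were also under it. SLC34A2 was lower in si-Med23, at 4.72, 4.90 and 5.81 against 6.28, 5.95 and 6.18 in si-Ctrl. SFTA3, the dimmest, was at 0.585, 1.32 and 1.585 in si-Med23 against 3.31, 4.21 and 2.43. For SFTPD and ADGRF5 these groups overlapped. With no filter, 3 genes of this list passed as higher and 3 as lower in si-Med23. In that setting 1687 of all 19775 genes passed as higher and 1948 as lower. Of this list 0 of 7 passed in si-Elk1 (limma), and 2 had an unadjusted p under 0.05, as did 3162 of all 12616 genes.

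Of the genes for surfactant lipid synthesis 16 of 18 were tested, and in si-Med23 7 rose and 2 fell on the deposited scale (1 and 14 with spike scaling). Over all genes 20.3% passed as higher and 19.5% as lower. The median log2 fold change was 0.39 over the 16 and 0.09 over all genes. LPCAT3, another lysophospholipid acyltransferase, rose by 0.95 ± 0.14 (adjusted p = 0.00256), and STARD10, a phospholipid transfer protein, by 1.15 ± 0.17 (adjusted p = 0.00277). The log2 change of ELOVL6, a fatty acid elongase that fell, was -1.29 ± 0.24 (adjusted p = 0.0053). MFSD2A, a lysolipid transporter named here after its values were seen, was under the filter level on all 3 si-Ctrl arrays, at 5.75, 3.71 and 3.28, and at 8.09, 7.26 and 7.51 in si-Med23. It is 1 of the 7 that rose (3.37 ± 0.71, adjusted p = 0.00783), and its mean reached the level through the groups where it is high.

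LPIN1, a phosphatidate phosphatase, fell in both knockdowns, which share their controls. Its log2 signals were 10.53, 10.35 and 10.49 in si-Ctrl, 9.45, 9.60 and 9.65 in si-Med23, and 9.29, 9.36 and 9.35 in si-Elk1. It fell by 0.89 in si-Med23 (adjusted p = 0.00202) and by 1.12 in si-Elk1 (adjusted p = 0.00319). Its other probe sets gave 0.19 ± 0.31 and -0.23 ± 0.24 in si-Med23 and -0.57 ± 0.31 and -1.17 ± 0.24 in si-Elk1. The mean of its probe sets did not pass in si-Med23 (-0.31, adjusted p = 0.178). In si-Elk1 1 gene of this list rose and 1 fell (0 and 10 with spike scaling). The riser was LPCAT2 at 0.69 ± 0.16 (adjusted p = 0.0497), a call lost without any 1 of 7 arrays: si-Ctrl 1 (0.66), si-Ctrl 2 (0.72), si-Ctrl 3 (0.68), si-Med23 B (0.69), si-Elk1 A (0.74), si-Elk1 B (0.72) or si-Elk1 C (0.62), with adjusted p-values from 0.0678 to 0.14.

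**Figure D5:**
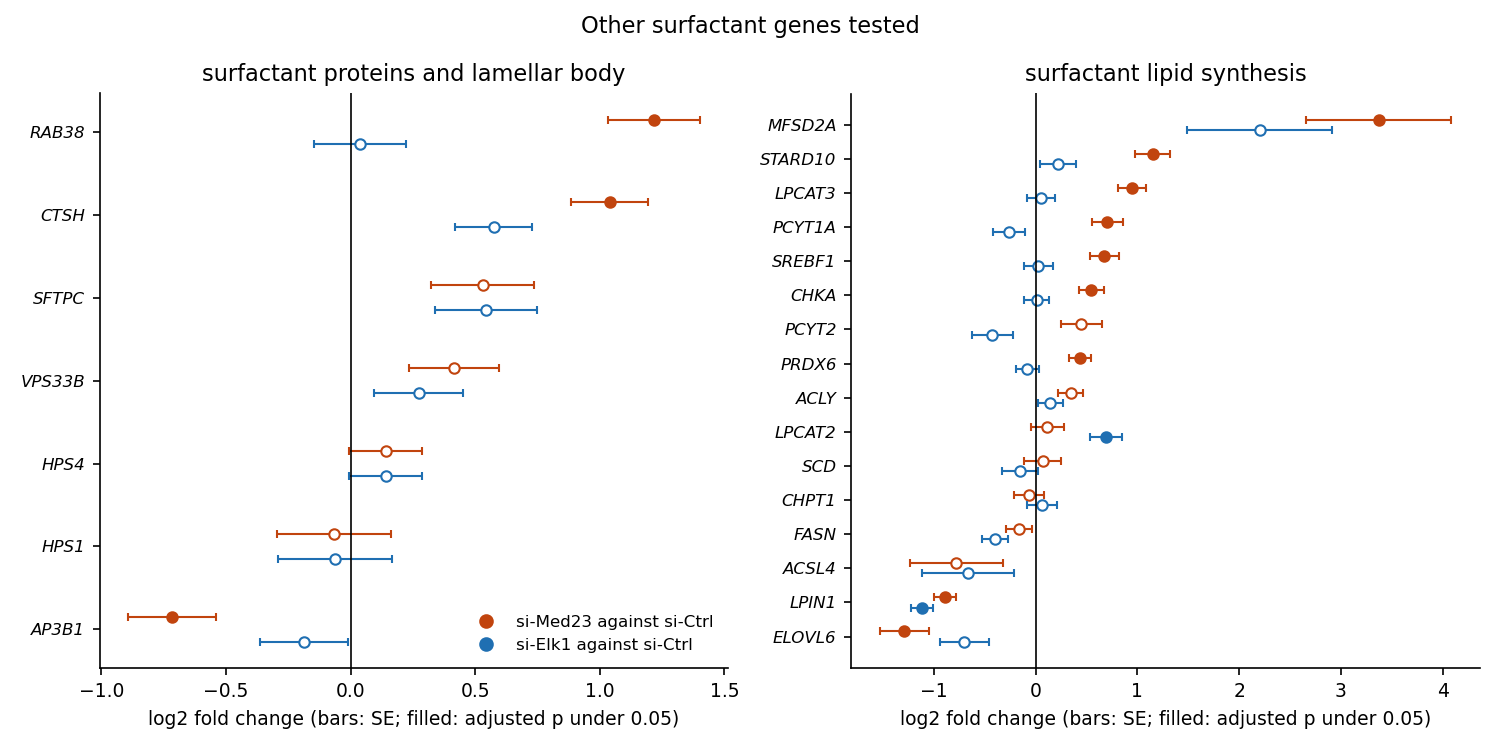
Log2 fold changes on the deposited scale with their SE for the 7 lamellar body genes (left) and 16 lipid synthesis genes (right) tested, in si-Med23 and si-Elk1 against si-Ctrl, filled where the adjusted p was under 0.05. In si-Med23 RAB38 lies at 1.22 and ELOVL6 at -1.29, LPIN1 is filled in both knockdowns, and with spike scaling 6 genes at left and 14 at right pass as lower in si-Med23.

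Of 18 other factors of lung development 16 were tested. In si-Med23 6 rose and 3 fell on the deposited scale (0 and 15 with spike scaling), with a median of 0.34. Over all genes 20.3% passed as higher and 19.5% as lower. The counts of this list were 3 and 2 without si-Ctrl 2 and 3 and 1 without si-Ctrl 3. CEBPD, a C/EBP factor that can act on surfactant genes, rose by 1.65 ± 0.20 (adjusted p = 0.00184), ELF3, an epithelial ETS factor, by 0.79 ± 0.17 (adjusted p = 0.00852) and STAT3 by 0.56 ± 0.12 (adjusted p = 0.00781). NFIB, needed for lung maturation, fell, with a log2 change of -0.71 ± 0.15 (adjusted p = 0.00781). In si-Elk1 1 rose and 1 fell (0 and 6 with spike scaling). SOX2, a factor of the airway and of stem cells, was at log2 9.89, 9.91 and 9.73 in si-Ctrl, 10.28, 10.04 and 10.41 in si-Med23, and 8.11, 8.33 and 8.62 in si-Elk1. It fell by 1.49 on the log2 scale in si-Elk1 (adjusted p = 0.00489), and the 3 dimmer SOX2 probe sets gave -0.09, -0.48 and 0.47.

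CEBPD also rose in si-Elk1, by 0.93 ± 0.20 (adjusted p = 0.0387). That call was lost without si-Ctrl 1 (0.89), si-Ctrl 2 (0.98), si-Ctrl 3 (0.93), si-Med23 A (0.93), si-Elk1 A (1.04), si-Elk1 B (1.02) or si-Elk1 C (0.74), with adjusted p-values from 0.0559 to 0.118. Its other probe set gave 0.00025 ± 0.21, and the mean of both did not pass (0.47, adjusted p = 0.178).

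Because HNF4A is a gut and liver factor that lung adenocarcinoma cells can carry, its relatives and liver genes were counted too. None of the 5 gut and liver factors tested of 15 passed in either knockdown (limma), and 1 in si-Med23 and 3 in si-Elk1 had an unadjusted p under 0.05. Over all 12616 genes 6348 in si-Med23 and 3162 in si-Elk1 had such a p. FOXA3 was 0.64 ± 0.25 higher in si-Med23 (adjusted p = 0.0684) and 0.91 ± 0.25 higher in si-Elk1 (adjusted p = 0.0709). Of 9 liver secretory genes tested of 15, 4 rose in si-Med23 (none rose and 4 passed as lower with spike scaling), with a median of 0.96. Over all genes 20.3% passed as higher there. In si-Elk1 2 rose, RBP4 and SERPINA1, with a median of 0.70 over the 9. With the mean of each gene's probe sets 1 gene of this list rose in si-Med23, with a median of 0.0035. In si-Elk1 that setting gave 0 risers and a median of 0.35. SERPINA1, the antitrypsin gene, rose by 1.47 ± 0.28 (adjusted p = 0.0292), and did not pass with spike scaling (0.83, adjusted p = 0.0655) or without si-Ctrl 1, 2 or 3 or si-Elk1 B or C (1.61, 1.57, 1.23, 1.39 and 1.27). Its mean in si-Ctrl, log2 5.92, was under the filter level, and in si-Med23 it was 6.08. The mean of SERPINA1 over the 9 arrays reached the level through si-Elk1, at 7.39, so its rise there is no independent support. RBP4, the retinol carrier, rose by 1.19 ± 0.19 in si-Med23 (adjusted p = 0.00301) and by 1.77 ± 0.19 in si-Elk1 (adjusted p = 0.00425). APOH, a plasma apolipoprotein, rose by 1.15 ± 0.22 in si-Med23 (adjusted p = 0.00543). AMBP rose there by 1.35 ± 0.17 (adjusted p = 0.00202), while its dimmer probe set gave -1.73 ± 0.75. The last of the 4, AHSG, was under the filter level on all 3 si-Ctrl arrays, at 4.66, 5.85 and 5.77, and its mean reached it through the knockdown arrays, so its rise of 1.90 ± 0.53 (adjusted p = 0.0227) is no independent support. It did not pass without si-Ctrl 1 (1.51), si-Med23 B (1.58) or si-Med23 C (1.69).

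Markers of other cells were read beside these results. All 8 airway genes with a probe set, SCGB1A1 and FOXJ1 among them, had means under the filter level, and their summed signals ran from 64.3 to 180 in si-Ctrl, from 88.1 to 156 in si-Med23 and from 88.3 to 178 in si-Elk1. Of 8 alveolar type I genes 6 were under it, AGER, PDPN and AQP5 included. In si-Med23 1 of the other 2 rose and 1 fell. EMP2, a membrane protein, rose by 0.41 ± 0.11 (adjusted p = 0.0209), lost without si-Ctrl 1 (0.43), si-Ctrl 3 (0.33) or si-Med23 C (0.38), and the sign turned with spike scaling (-1.20) and hybridization control scaling (-0.091). CAV1, a caveola protein, fell by 0.48 on the log2 scale in si-Med23 (adjusted p = 0.0172, lost without si-Ctrl 2 at -0.46 or si-Ctrl 3 at -0.48) and was lower by 0.66 in si-Elk1 (adjusted p = 0.0265). The second call was lost without si-Ctrl 1, 2 or 3 or si-Elk1 A or B, at -0.68, -0.65, -0.67, -0.73 and -0.72, with adjusted p-values from 0.0515 to 0.0952. The summed type I signals, of which CAV1 makes up most, ran from 19776 to 20400 in si-Ctrl, from 15034 to 15507 in si-Med23 and from 11611 to 14400 in si-Elk1, and their part in the results was not tested. The simple epithelium genes were all 6 tested, and in si-Med23 4 rose and 0 fell on the deposited scale (0 and 4 with spike scaling), with CDH1 at 1.19 ± 0.21 (adjusted p = 0.00464) and KRT8 at 0.80 ± 0.19 (adjusted p = 0.0119). The count was 2 without si-Ctrl 3, si-Med23 B or si-Med23 C, where KRT18 (0.44 ± 0.14, adjusted p = 0.0365) and KRT19 (1.36 ± 0.37, adjusted p = 0.0193) lost their calls, and 1 with hybridization control scaling. KRT18 also lost its call without si-Ctrl 1 (0.41), si-Ctrl 2 (0.48) or si-Elk1 A (0.44). Quantile normalization (0.06, adjusted p = 0.639), no filter (adjusted p = 0.0865) and the replicate block (adjusted p = 0.0636) lost it too. Over all genes 20.3% passed as higher in si-Med23. In si-Elk1 1 of the 6 rose (0 with spike scaling, where 2 passed as lower), and 0 without any 1 of the si-Ctrl or si-Elk1 arrays.

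Of the blood cell genes PTPRC, the marker of all leukocytes, was under the filter level, while CD14 rose by 1.65 ± 0.25 in si-Med23 (adjusted p = 0.00277) and by 1.77 ± 0.25 in si-Elk1 (adjusted p = 0.0113, lost without si-Ctrl 3 at 1.68, adjusted p = 0.0511). CD3E, a T cell receptor subunit, had a log2 change of -1.81 ± 0.69 in si-Med23 without passing (adjusted p = 0.0648) and of 0.68 ± 0.69 in si-Elk1. LYZ was under the level at mean log2 signals of 5.53, 3.10 and 5.92 in si-Ctrl, si-Med23 and si-Elk1. The 4 blood genes, with CD14 the largest part of the sum, came to between 335 and 434 in si-Ctrl, 538 and 1019 in si-Med23, and 897 and 1010 in si-Elk1. Of 6 endothelial and fibroblast genes CDH5, VWF, PDGFRB and COL1A2 were under the level. PECAM1, an endothelial gene, was over it and did not pass in either knockdown. Its log2 signals were 7.35, 7.45 and 7.84 in si-Ctrl, 7.25, 7.47 and 7.69 in si-Med23, and 7.64, 7.01 and 8.12 in si-Elk1. The other PECAM1 probe sets were dimmer, with means from 2.615 to 6.15. COL1A1 rose by 1.76 ± 0.19 in si-Med23 (adjusted p = 0.00184). Of its other probe sets with a mean over the level, 1 gave 1.26 ± 0.31 and 1 gave -0.06 ± 0.19, and the mean of all its probe sets did not pass (0.67, adjusted p = 0.288). In si-Elk1 COL1A1 rose by 0.95 ± 0.19 (adjusted p = 0.0318), a call lost without any 1 of the si-Ctrl or si-Elk1 arrays (0.84 to 1.01, adjusted p-values from 0.0609 to 0.0951). The 6 genes summed to between 896 and 923 in si-Ctrl, 1859 and 2953 in si-Med23, and 1302 and 1770 in si-Elk1. Whether CD14 or COL1A1 bears on the surfactant genes was not tested.

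For each member that rose, the 2 genes whose log2 signals followed it most closely over the 9 arrays are given as a description. They were CHFR (Pearson r = 0.975) and GALNT10 (0.974) for GATA6, PAF1 (0.976) and SAFB2 (0.975) for FOXA2, COX7C (0.989) and HM13 (0.981) for ABCA3, and DNER (0.981) and B3GALT6 (0.972) for LPCAT1. No 2 members share a gene among these. The 9 points fall into 3 groups, so such values follow mainly from the group means, and the highest were picked from 12616 genes.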

How the data were processed

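RNA of 9 A549 samples was measured on Affymetrix human arrays, and groups and replicate numbers come from the labels. The deposited values are intensities, linear probe set signals. RMA and MAS5 are listed in the submitters' processing notes, without saying which made them, and the values share a 2% trimmed mean near 500.1, which removes any change in total RNA. For the arrays no genome build was given in the sources used here.

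Signals were analysed as log2(value + 1), which slightly understates fold changes of dim genes. The annotation gives 41097 of 54675 probe sets 1 symbol and 1801 several, and 62 are controls. All 12616 genes above the filter level were fitted together over the 9 arrays with limma 3.58.1 in R 4.3.3 (lmFit, eBayes, two-sided), with Benjamini-Hochberg adjustment within a comparison and a threshold of 0.05. All 54613 probe sets were also fitted without a filter. The number of arrays limits the precision, and detection calls were not used here. The code was tested on simulated data.

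The members and the gene lists were chosen with earlier results of these data known. Genes named are MED23, ELK1, every member with each probe set, up to 4 genes per list and knockdown with the smallest p among those that passed, and the 2 most correlated genes per member called. Others named for their levels were chosen after their values were seen. Replicate numbers did not pair the arrays. Correlations of deviations from the group means between same-numbered arrays ran from -0.176 to 0.0462. Alternatives were other scalings, filters, pseudocounts (16), probe set means, a replicate block, a fit of 6 arrays and each array left out. Promoters come from RefSeq (GRCh38.p14).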

Additional observations from a re-analysis of the deposited data

How the results depend on the processing

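Of 1136 pairs of a gene's result and an alternative, 959 kept their side of the threshold, 136 lost the call, 12 gained one and 29 turned with a call before or after. A turn of sign with no call before or after is counted among the 959, such as LPCAT1 in si-Elk1 at -0.36 with spike scaling. Poly-A spike scaling turned most of the 29 by its construction, since it lowers every value in si-Med23 alike. The members called became 6 in si-Med23 and 3 in si-Elk1 against si-Ctrl and 2 between the knockdowns, all lower. In si-Med23 it gave GATA6 -0.56, FOXA1 -1.26, FOXA2 -1.18, NAPSA -1.57, ABCA3 -0.019, LPCAT1 -0.79, ELK1 -1.07, CTSH -0.57, RAB38 -0.39, LPCAT3 -0.66, STARD10 -0.46, STAT3 -1.05, ELF3 -0.82, AMBP -0.26, RBP4 -0.42, APOH -0.46, EMP2 -1.20, CDH1 -0.42, KRT8 -0.81, KRT19 -0.25 and KRT18 -1.17. In si-Elk1 it gave GATA6 -0.63, and between the knockdowns FOXA2 -0.27 and ABCA3 -0.11. Hybridization scaling gave FOXA2 -0.071, EMP2 -0.091 and KRT18 -0.056 in si-Med23 and 1 member called between the knockdowns. The mean of a gene's probe sets gave FOXA2 -0.085 and AMBP -0.19, with 2 members called in si-Med23 and 1 between the knockdowns, where no filter gave 1 and median centring 5. Leaving out 1 array gave 3 to 4 members called in si-Med23, 0 in si-Elk1 and 1 to 5 between the knockdowns. With the replicate number as a block 3, 0 and 2 members were called, and the numbers do not pair the arrays. Over all genes, 5023 were called in si-Med23 against 3635 to 11898 under the settings and 3174 to 5884 with 1 array left out. In si-Elk1 537 were called, against 119 to 4993 and 109 to 498. Between the knockdowns 2739 were called, against 979 to 10252 and 769 to 4496. With 3 arrays a group, changes in members near background, such as NKX2-1 and NAPSA, are the least certain.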
